A study of Mus musculus with 24 samples.

Results

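Among 47937 genes counted in mouse embryonic fibroblasts (MEFs), 31 had RNA above a count minimum in wild-type (WT) cells and at most 12.5% of their WT level in both lines that lack the 6 histone H3 lysine 9 methyltransferases (*6KO1* and *6KO2*). A gene was taken where it had at least 100 counts in each WT library, and where its mean CPM (gene counts scaled to a common library total) in *6KO1* and in *6KO2* were each at most 12.5% of the WT mean. Of the 47937 genes, 11141 met the WT count minimum. Symbols beginning with Col or Hox and a few genes named in the rule were left out, which removed 5 genes that met both terms. The genes were thus selected on the WT, *6KO1* and *6KO2* libraries, so their low level in *6KO1* and *6KO2* is given as a description and carries no test.

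The study removed the enzymes step by step and sequenced total RNA from 24 cultures, 3 biological replicates in each of 8 conditions. WT cells carry floxed *Eset1* (*Setdb1*) and a tamoxifen-inducible Cre recombinase and received no 4-hydroxytamoxifen (4-OHT), and *E1* is the same line with 1 uM 4-OHT, which deletes *Eset1*. In the first series of clones, *E1 S1S2* also lacks *Suv39h1* and *Suv39h2*, and *6KO1*, made from it, lacks *Eset2* (*Setdb2*), *G9a* (*Ehmt2*) and *Glp* (*Ehmt1*) as well. In the second series, *E2* lacks *Eset2* and was grown without 4-OHT, *E1E2* is that clone with 4-OHT, *E1E2 G9Gl* further lacks *G9a* and *Glp*, and *6KO2* further lacks *Suv39h1* and *Suv39h2*. Genes other than *Eset1* were disrupted by CRISPR/Cas9 frameshifts, all conditions but WT and *E2* received 4-OHT, and all lines descend from the WT clone. Where a comparison sets different clones side by side, each genotype is 1 clone, so that genotype and clone cannot be told apart. The paper adds that lines edited by CRISPR/Cas9 received an inducible Cre construct again and were kept in puromycin. In comparisons of edited with unedited lines, these cannot be told apart from genotype either. *E1* against WT and *E1E2* against *E2* each stay within a clone, and there *Eset1* loss and exposure to 4-OHT cannot be told apart. The treatment label names 4-OHT for every sample, while the titles call WT and *E2* controls, and the titles were followed.

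The Suv39h, Eset (Setdb) and G9a/Glp enzymes are mostly known for keeping genes and repeats silent. They add methyl groups to lysine 9 of histone H3, a mark found on heterochromatin. MEFs are mesenchymal cells that make and remodel extracellular matrix and answer Hedgehog, Wnt, retinoid and growth factor signals. Genes that mark where in the embryo a fibroblast came from, such as those of limb or skin mesenchyme, are often among the most variable between MEF lines.

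Gene counts per library ranged from 19541909 to 31489070. *Eset1* RNA, which loses only the floxed exons on deletion, was at 63.4, 52.8 and 59.1 CPM in the WT libraries and at 38.6, 43.1 and 37.9 CPM in the *E1* libraries. It was at 48.8, 39.6 and 54.2 CPM in *E2* and 48.5, 45.9 and 48.7 CPM in *E1E2*, so that the whole-gene count did not separate the *E2* libraries from the *E1E2* libraries. *Eset1* was at 40.0, 42.1 and 42.9 CPM in *E1 S1S2*, 45.6, 45.6 and 42.9 CPM in *6KO1*, 26.7, 26.0 and 26.8 CPM in *E1E2 G9Gl* and 31.4, 29.8 and 30.5 CPM in *6KO2*. A frameshift can leave RNA in place, so the counts of the other targeted genes check the labels only loosely. *Eset2*, intact in the WT, *E1* and *E1 S1S2* cells, had means of 28.7, 25.4 and 20.2 CPM there. It had a mean of 17.5 CPM in *6KO1*, and its means lay between 10.2 CPM (*E1E2 G9Gl*) and 11.4 CPM (*E2*) in the second series. *G9a* had a mean of 124 CPM in WT and 207 CPM in *E1 S1S2*, against 39.7 CPM in *E1E2 G9Gl*, 84.4 CPM in *6KO2* and 55.7 CPM in *6KO1*. *Glp* had a mean of 104 CPM in WT, 40.6 CPM in *E1E2 G9Gl*, 54.3 CPM in *6KO2* and 56.3 CPM in *6KO1*. *Suv39h1* had a mean of 106 CPM in WT, 51.6 CPM in *E1 S1S2*, 36.3 CPM in *6KO1* and 61.5 CPM in *6KO2*, and *Suv39h2* had 38.1, 69.3, 47.6 and 19.9 CPM in the same order. *E1E2 G9Gl*, in which both *Suv39h* genes are intact, had 79.7 CPM of *Suv39h1* and 14.3 CPM of *Suv39h2*.

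WT replicate 2 stood apart from the other WT libraries. The chi-square per gene between WT replicates 1 and 3 was 5.04, while it was 68.3 and 57.0 for the pairs with WT replicate 2. Some of the 31 genes were lowest there, such as *Mn1* with 23.3 CPM against 43.5 and 35.5 CPM. Others were highest there, such as *Ptn* with 11.2 CPM against 7.33 and 7.45 CPM. Without WT replicate 2 the same rule found 37 genes, the 31 among them.

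In every condition other than WT the 31 genes lay, at the median, below their WT level. Their median level was 36.3% of WT in *E1*, was 13.3% at the *E1 S1S2* step and 2.01% in *6KO1*. In the second series the medians were 16.2% (*E2*), 15.6% (*E1E2*), 2.47% (*E1E2 G9Gl*) and 7.27% (*6KO2*). Over all 11141 genes with the WT count minimum the median lay between 94.6% and 104% of WT in these 7 conditions. Since the WT level chose the genes, a value below 100% is partly set by the rule.

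**Figure D1:**
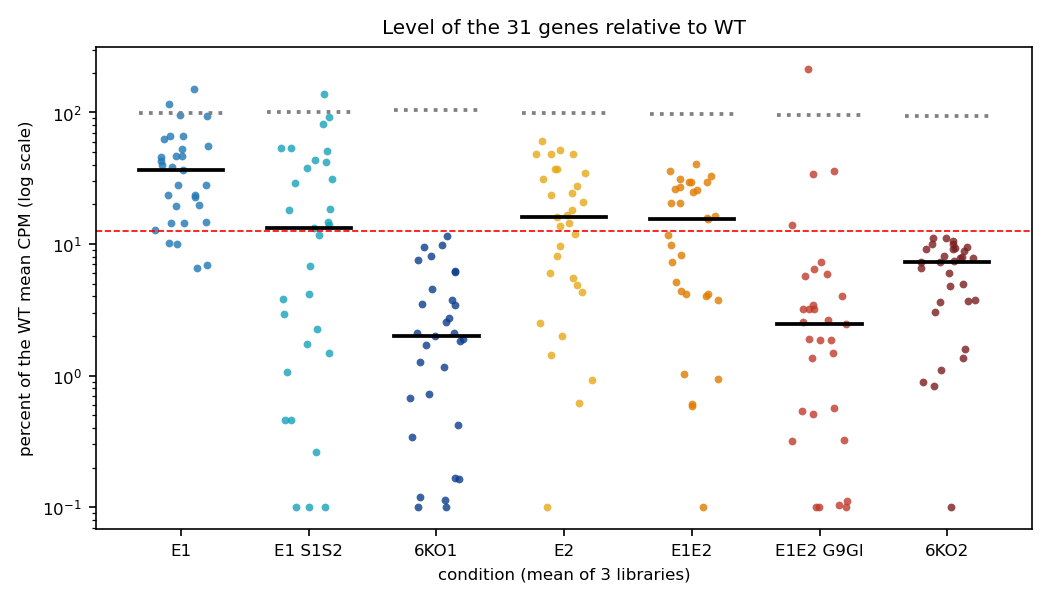
Mean level of each of the 31 genes in 7 conditions, as percent of the WT mean CPM on a log axis; values under 0.1% are drawn at 0.1%, black bars are medians of the 31 genes, dotted grey bars medians of the 11141 genes with the WT count minimum, and the dashed red line is the 12.5% threshold. The 31 genes lie under the line in *6KO1* and *6KO2* by the rule, and 27 of them do so in *E1E2 G9Gl*.

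Levels in the conditions that the rule did not use are given as a description. They are percents of the WT mean, which the rule did use. *E1 S1S2* and *E1E2 G9Gl* are also the parent clones of the lines that the rule used. The counts below are thus not independent of how the genes were chosen, while the shares of all genes carry no such choice on the mutant lines. At or under 12.5% of WT were 4 of the 31 genes for *E1* and 15 for *E1 S1S2*, and in the second series 13 for *E2*, 15 for *E1E2* and 27 for *E1E2 G9Gl*. The shares of all 11141 genes at or under it were 0.117%, 0.637%, 0.341%, 0.341% and 1.12% in the same order. Of these 5 conditions, 11 genes were at or under the threshold in 1, 5 in 2, 7 in 3 and 8 in 4, and no gene was so in all 5. The 8 genes low in 4 conditions were *Serpinf1*, *Mn1*, *Capn6*, *Tenm4*, *Zfp422*, *Thbs2*, *Ptn* and *Rps6ka6*. The 4 that were above it in *E1E2 G9Gl* were *Thy1*, *Unc13c*, *Dapk2* and *Eif4g3*. These are bulk cultures, in which fewer cells that use a gene and less RNA per cell cannot be told apart.

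Few of the genes were wholly without RNA. With libraries of a condition summed, 6 genes had 3 or fewer counts in *6KO1* (*Hlf*, *Zfp422*, *Fam20a*, *Fgf5*, *Thy1* and *Kctd15*), and in *6KO2* it was 1, *Zfp422*, which had none. The highest remaining level was 11.6% of WT in *6KO1* (*Car12*) and 11.2% in *6KO2* (*Gli2*), both bounded by the 12.5% of the rule. In *E1E2 G9Gl*, 7 genes had 3 or fewer counts, of which *Arhgap28*, *Fgf5* and *Rps6ka6* had none. In *E1 S1S2* it was 5 genes, of which *Ptn* and *Kctd15* had none.

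**Figure D2:**
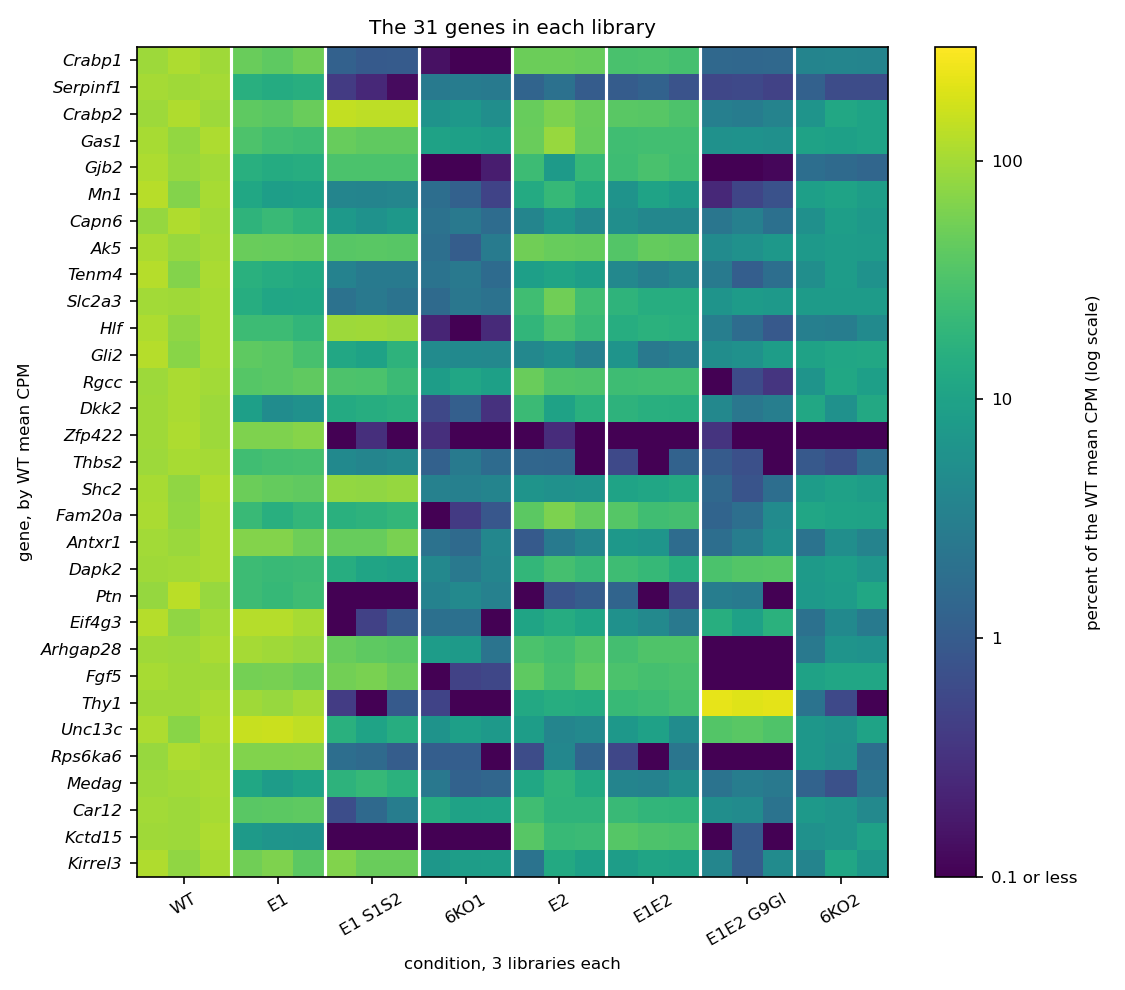
Level of each of the 31 genes (top to bottom, by WT mean CPM) in each of the 24 libraries (left to right, 3 per condition), as percent of the WT mean CPM on a log color scale that ends at 0.1%. WT replicate 2 and *E2* replicate 2 differ from their replicates in several genes, and mean levels above those of WT are seen for *Crabp2* in *E1 S1S2*, *Thy1* in *E1E2 G9Gl* and *Eif4g3* and *Unc13c* in *E1*.

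The retinoid binding proteins *Crabp1* and *Crabp2* were among the 3 most abundant of the genes. Both bind retinoic acid in the cytoplasm, and Crabp2 is known to hand it to nuclear receptors. *Crabp1* was at 538, 633 and 551 CPM in the WT libraries, 274, 236 and 299 CPM in *E1*, and 6.86, 5.62 and 5.78 CPM in *E1 S1S2*. The libraries of each of these conditions lie wholly below those of the one before. *Crabp1* fell from *E1* to *E1 S1S2* (log2 fold change -5.54 ± 0.12 SE, adjusted p = 1.02e-19, edgeR quasi-likelihood test over all genes). In the second series *Crabp1* was at 283, 281 and 265 CPM in *E2*, 174, 176 and 164 CPM in *E1E2*, and 8.61, 8.29 and 8.55 CPM in *E1E2 G9Gl*. It fell there too (log2 fold change from *E1E2* -4.37 ± 0.12 SE, adjusted p = 2.78e-19), at the step of the second series that took away *G9a* and *Glp*. In *6KO1*, *Crabp1* was at 0.834, 0.566 and 0.551 CPM and in *6KO2* at 21.1, 22.3 and 21.6 CPM, higher in every library than in *E1E2 G9Gl*.

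*Crabp2* followed another order. It was at 66.2, 82.3 and 67.2 CPM in WT, 29.4, 28.1 and 35.1 CPM in *E1* and 102, 97.1 and 96.4 CPM in *E1 S1S2*. It rose from *E1* to *E1 S1S2* (log2 fold change 1.60 ± 0.15 SE, adjusted p = 7.54e-09) and lay there above every WT library. In the second series it was at 28.1, 26.6 and 23.2 CPM in *E1E2* and 2.26, 2.11 and 2.61 CPM in *E1E2 G9Gl* (log2 fold change -3.52 ± 0.21 SE, adjusted p = 6.43e-13). The *6KO1* libraries held 4.43, 5.13 and 3.77 CPM and the *6KO2* libraries 4.53, 8.72 and 7.38 CPM. Per kilobase of exon, WT cells held 716 CPM of *Crabp1* and 54.4 CPM of *Crabp2*.

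**Figure D3:**
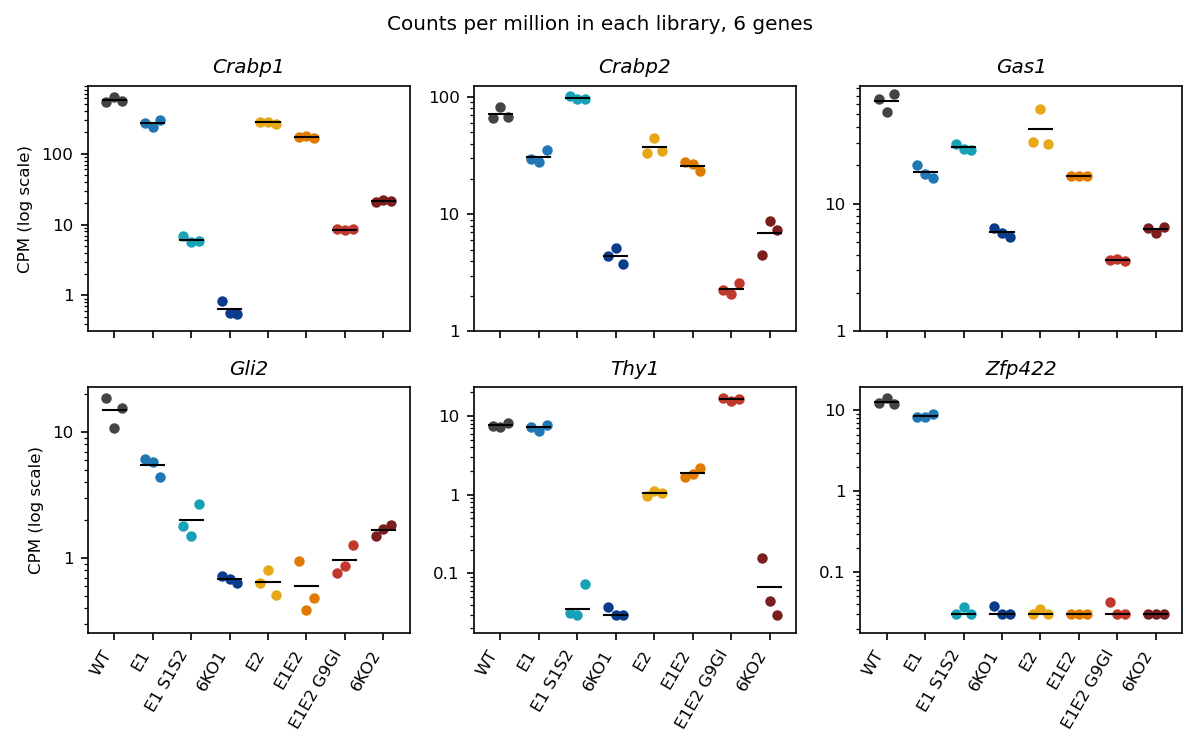
CPM of *Crabp1*, *Crabp2*, *Gas1*, *Gli2*, *Thy1* and *Zfp422* in each library (points) with the condition mean (bars), on log axes; values under 0.03 CPM are drawn at 0.03. *Crabp1* and *Crabp2* part in *E1 S1S2*, *Thy1* is highest in *E1E2 G9Gl* and *Zfp422* is present in WT and *E1*.

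Promoter sequence is shown for 4 genes, to set bases beside genes that lay lower in *E1E2 G9Gl* than in *E1E2*. The 4 did not share their level in *E1 S1S2*. *Crabp1* was at 1.06% of WT there, *Gas1* at 43.6%, *Gjb2* at 31.3% and *Fgf5* at 54.1%. A window is the 250 bases before the start site. Of the 4, 3 have the highest WT level per kilobase among genes whose RefSeq window is known and overlaps no annotated exon. The other is *Fgf5*, 1 of 3 genes with no count in *E1E2 G9Gl*. Of the remaining genes without a count there, *Arhgap28* holds GGGCGG in its window. *Rps6ka6* holds TATAAA and CCAAT but no GGGCGG. The 4 genes were chosen after the values were seen. Capitals mark short motifs on either strand: GGGCGG in each of the 4, and beside it GGAATG in the *Crabp1* window and CCAAT in the *Gas1* window.
Crabp1, plus strand, chr9:54764498-54764747: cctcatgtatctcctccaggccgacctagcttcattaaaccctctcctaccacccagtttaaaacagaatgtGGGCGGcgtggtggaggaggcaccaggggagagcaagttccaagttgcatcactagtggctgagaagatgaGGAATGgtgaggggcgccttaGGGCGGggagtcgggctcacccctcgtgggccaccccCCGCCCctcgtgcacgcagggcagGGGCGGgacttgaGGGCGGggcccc
Gas1, minus strand, chr13:60177536-60177785: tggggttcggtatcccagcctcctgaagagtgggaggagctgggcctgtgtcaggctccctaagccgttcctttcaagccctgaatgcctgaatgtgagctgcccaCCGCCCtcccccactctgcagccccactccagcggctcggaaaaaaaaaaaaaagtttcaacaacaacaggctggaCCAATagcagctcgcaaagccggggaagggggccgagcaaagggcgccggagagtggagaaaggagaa
Gjb2, minus strand, chr14:57104703-57104952: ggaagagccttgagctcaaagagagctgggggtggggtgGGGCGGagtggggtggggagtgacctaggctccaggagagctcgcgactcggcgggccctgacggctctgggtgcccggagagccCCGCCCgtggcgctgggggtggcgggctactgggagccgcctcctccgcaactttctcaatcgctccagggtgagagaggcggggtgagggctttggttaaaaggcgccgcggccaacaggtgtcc
Fgf5, plus strand, chr5:98253934-98254183: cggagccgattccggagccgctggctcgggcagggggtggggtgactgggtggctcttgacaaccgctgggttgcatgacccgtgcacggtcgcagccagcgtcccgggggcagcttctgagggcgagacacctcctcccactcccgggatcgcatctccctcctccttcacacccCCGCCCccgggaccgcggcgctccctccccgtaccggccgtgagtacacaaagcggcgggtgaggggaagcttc
All are of the GRCm38.p6 build. The *Crabp1* window is 63.6% G or C, that of *Gas1* 58.8%, that of *Gjb2* 69.2% and that of *Fgf5* 70.8%, and they hold 12, 10, 18 and 24 CpG dinucleotides. All 4 hold GGGCGG, which 57.5% of the 11111 tested genes with a RefSeq sequence also hold.

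Hedgehog and Wnt signalling contributed *Gas1*, *Gli2* and *Dkk2*. Gas1 is a surface co-receptor that helps cells answer Hedgehog ligands, Gli2 is a transcription factor that turns the signal into gene activation, and Dkk2 is a secreted modulator of Wnt signalling. *Gas1* was at 65.9, 51.8 and 71.6 CPM in WT, 20.01, 16.9 and 15.8 CPM in *E1* and 29.3, 26.7 and 26.5 CPM in *E1 S1S2*. It was at 30.5, 55.4 and 29.4 CPM in *E2*, where replicate 2 lay apart, and 16.3, 16.6 and 16.6 CPM in *E1E2*. The *E1E2 G9Gl* libraries had 3.62, 3.71 and 3.53 CPM, all below *E1E2* (log2 fold change -2.22 ± 0.19 SE, adjusted p = 8.27e-10). It shares 589 exon bases with an annotated noncoding gene on the opposite strand, and *Tenm4* 988, with fewer for *Ak5*, *Shc2*, *Antxr1* and *Kctd15*. The paper names a stranded library kit, but whether reads were counted by strand is not given in the sources used here. The counts of these genes are uncertain to that extent.

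*Gli2* was at 18.6, 10.7 and 15.6 CPM in WT, 6.14, 5.81 and 4.37 CPM in *E1* and 1.81, 1.49 and 2.67 CPM in *E1 S1S2*. It fell from *E1* to *E1 S1S2* (log2 fold change -1.52 ± 0.22 SE, adjusted p = 4.15e-06). In *E2*, before 4-OHT, it was already at 0.633, 0.803 and 0.506 CPM, and it stayed between 0.385 and 1.28 CPM in the libraries of *E1E2* and *E1E2 G9Gl*. *Dkk2* was at 12.9, 14.5 and 12.6 CPM in WT and 1.21, 0.663 and 0.762 CPM in *E1*. It was at 1.78, 1.93 and 2.16 CPM in *E1 S1S2*, and at 0.0758, 0.151 and 0.0424 CPM in *6KO1*. From *E1E2*, with 2.38, 2.10 and 2.05 CPM, it fell to 0.554, 0.321 and 0.409 CPM in *E1E2 G9Gl* (log2 fold change -2.36 ± 0.36 SE, adjusted p = 4.23e-06).

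Secreted and matrix proteins made up another group. Serpinf1 (pigment epithelium-derived factor) is a secreted serpin that restrains blood vessel growth, Thbs2 is a matrix thrombospondin, Fam20a is a pseudokinase of the secretory pathway, and Ptn and Fgf5 are heparin-binding growth factors. *Serpinf1* was at 120, 112 and 120 CPM in WT, 18.1, 15.99 and 17.8 CPM in *E1* and 0.476, 0.297 and 0.146 CPM in *E1 S1S2* (log2 fold change from *E1* -5.84 ± 0.21 SE, adjusted p = 1.27e-15). In *6KO1*, made from *E1 S1S2*, it was higher again in every library, at 3.15, 3.36 and 3.05 CPM. In the second series it was at 1.54, 2.30 and 1.20 CPM in *E2*, and no library of *E1E2*, *E1E2 G9Gl* or *6KO2* exceeded 1.46 CPM.

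*Thbs2* and *Ptn* were also low in *E2* without 4-OHT. *Thbs2* was at 12.0, 13.5 and 12.9 CPM in WT, 3.33, 3.67 and 3.78 CPM in *E1* and 0.181, 0.174 and 0 CPM in *E2*. *Ptn* was at 7.33, 11.2 and 7.45 CPM in WT, 2.08, 1.87 and 2.15 CPM in *E1* and 0, 0.0698 and 0.0921 CPM in *E2*. No *Ptn* count was found in the 3 *E1 S1S2* libraries, while the *6KO1* libraries derived from that clone had 0.303, 0.377 and 0.297 CPM. *Fgf5* differed from both. It was at 8.25, 7.54 and 7.53 CPM in WT and held 4.43, 4.49 and 3.94 CPM in *E1* and 4.19, 4.65 and 3.77 CPM in *E1 S1S2*. In *E1E2* it was at 2.41, 2.18 and 2.33 CPM, and in *E1E2 G9Gl* it had 0 counts against 173 in *E1E2*. *6KO2*, derived from *E1E2 G9Gl*, had 0.794, 0.895 and 0.891 CPM. *Fam20a* fell from 3.58, 2.48 and 2.69 CPM in *E1E2* to 0.128, 0.183 and 0.461 CPM in *E1E2 G9Gl* (log2 fold change -3.58 ± 0.33 SE, adjusted p = 1.76e-09).

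Among surface proteins, *Thy1* is a glycolipid-anchored protein widely used to mark fibroblasts, and it was low in *E1 S1S2* but high in *E1E2 G9Gl*. It was at 7.37, 7.18 and 8.24 CPM in WT and 7.35, 6.55 and 7.65 CPM in *E1*, 2 conditions whose libraries overlap. In *E1 S1S2* it had 3 counts over the 3 libraries and in *6KO1* 1. In the second series it was at 0.9497, 1.12 and 1.06 CPM in *E2*, 1.70, 1.84 and 2.17 CPM in *E1E2* and 16.8, 15.4 and 16.6 CPM in *E1E2 G9Gl*, above every WT library. It rose from *E1E2* to *E1E2 G9Gl* (log2 fold change 3.06 ± 0.16 SE, adjusted p = 8.01e-14). *6KO2*, made from *E1E2 G9Gl*, had 0.159, 0.0447 and 0 CPM. The other surface proteins are *Gjb2* (the gap junction protein connexin 26), *Antxr1* (a collagen-binding receptor that also binds anthrax toxin), *Tenm4* (a teneurin), *Kirrel3* (an adhesion protein of the immunoglobulin family), *Slc2a3* (the glucose transporter Glut3) and *Car12* (a membrane carbonic anhydrase).

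*Gjb2* was at 50.1, 39.1 and 44.7 CPM in WT, 11.3, 13.4 and 11.6 CPM in *E1E2* and 13.9, 13.9 and 14.1 CPM in *E1 S1S2*. It had 3 counts in all in *E1E2 G9Gl*, against 902 in *E1E2*, and between 0.0377 and 0.0848 CPM in the *6KO1* libraries. *Antxr1* and *Kirrel3* kept 51.3% and 53.9% of their WT level in *E1 S1S2* but 2.51% and 8.15% in *E2*. *Tenm4* was at 14.4% of WT in *E1*, 2.95% in *E1 S1S2* and 9.64% in *E2*, and *Slc2a3* at 12.7%, 2.24% and 34.4%. *Car12* was at 1.74% of WT in *E1 S1S2* and at 11.6% in *6KO1*. 

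Transcription regulators were *Mn1*, *Hlf*, *Zfp422*, *Kctd15* and *Gli2*. Hlf is a leucine zipper factor with daily rhythms in many tissues, Mn1 is a cofactor needed for skull and palate bones, Zfp422 is a zinc finger protein and Kctd15 is known to hold back neural crest formation. *Zfp422* was at 12.2, 14.1 and 12.1 CPM in WT and 8.19, 8.23 and 8.91 CPM in *E1*. In each of the other 6 conditions its 3 libraries summed to 1 count or 0, and among the 31 genes it alone had 3 or fewer counts in *E2*. *Hlf* was at 18.6, 13.2 and 17.5 CPM in WT, 4.02, 4.02 and 3.21 CPM in *E1* and 15.2, 15.7 and 14.96 CPM in *E1 S1S2*, where it rose (log2 fold change from *E1* 1.95 ± 0.15 SE, adjusted p = 3.45e-10). *6KO1* libraries had 0.0379, 0 and 0.0424 CPM of it. *Mn1* was at 3.98, 3.003 and 3.21 CPM in *E1* and 1.30, 1.26 and 1.35 CPM in *E1 S1S2*, and it fell from 2.11, 3.51 and 2.81 CPM in *E1E2* to 0.0852, 0.183 and 0.256 CPM in *E1E2 G9Gl* (log2 fold change -4.04 ± 0.43 SE, adjusted p = 2.56e-08). *Kctd15* had 27 counts over the *E1* libraries, 0 in *E1 S1S2* and in *6KO1*, and 118 in *E1E2*.

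Signalling genes were *Shc2* (a receptor adaptor), *Dapk2* (a calmodulin-dependent death kinase), *Rps6ka6* (a ribosomal S6 kinase), *Arhgap28* (a GTPase-activating protein) and *Rgcc* (a regulator of the cell cycle). *Shc2* was at 82.4% of WT in *E1 S1S2* and 6.07% in *E2*. *Rps6ka6* was at 66.5% of WT in *E1*, against 1.49% in *E1 S1S2* and 1.995% in *E2*. *Arhgap28* was at 7.81, 7.53 and 6.86 CPM in *E1*, overlapping the WT libraries at 7.46, 7.32 and 8.55 CPM, and had 0 counts in *E1E2 G9Gl* against 182 in *E1E2*. *Rgcc* had 3 counts in *E1E2 G9Gl* against 282 in *E1E2*. *Dapk2* was at 2.77, 3.12 and 3.22 CPM in *E1E2 G9Gl*, above the *E1 S1S2* libraries at 1.30, 0.967 and 0.878 CPM (log2 fold change 1.56 ± 0.18 SE, adjusted p = 1.20e-07).

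The others have varied roles. Ak5 is an adenylate kinase, Capn6 a calpain without protease activity, Eif4g3 a translation initiation factor, Unc13c a protein of synaptic vesicle release and Medag a regulator of fat cell formation. *Ak5* was at 31.4, 25.1 and 29.2 CPM in WT and 10.1, 12.8 and 12.0 CPM in *E1E2*, and fell to 1.36, 1.65 and 2.05 CPM in *E1E2 G9Gl* (log2 fold change -2.83 ± 0.15 SE, adjusted p = 6.88e-14). *Eif4g3* was at 9.64, 6.20 and 7.96 CPM in WT, 9.82, 9.71 and 8.25 CPM in *E1* and 3 counts over the *E1 S1S2* libraries. *Unc13c* was at 8.21, 5.36 and 8.67 CPM in WT and 11.4, 11.6 and 10.3 CPM in *E1*, every library above the WT libraries, and fell to 1.21, 0.781 and 1.10 CPM in *E1 S1S2* (log2 fold change -3.49 ± 0.19 SE, adjusted p = 1.59e-12). *Medag* shares 1453 exon bases with an annotated transcript on the same strand, and *Capn6* 122 with an annotated microRNA gene, so their counts are uncertain.

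The next comparisons set conditions side by side that the rule did not use. *E1 S1S2* and *E1E2 G9Gl* are the parent clones of *6KO1* and *6KO2*, so that the rule may favor lower levels in them through descent, and the counts of lower calls there are not wholly independent of how the genes were chosen. A gene was called where the log2 fold change was at least 1 in size and the adjusted p at most 0.01. The 18565 tested genes include genes under the WT count minimum, which all 31 genes meet. The shares of all tested genes, here and below, are thus not matched to the 31 for WT level. With *Suv39h1* and *Suv39h2* lost in *Eset1*-null cells (*E1 S1S2* against *E1*), 18 of the 31 genes were called lower, where 3.75% of all 18565 tested genes were, and 4 were called higher, where 4.31% of all were. The 4 were *Hlf*, *Crabp2*, *Dkk2* and *Gjb2*. Their number fell to 2 without *E1* replicate 2, as *Dkk2* and *Gjb2* were then no longer called. The largest falls with more than 3 counts in both conditions were those of *Serpinf1*, *Crabp1*, *Rps6ka6* and *Car12*. The median log2 fold change of the 31 was -1.45, against -0.01 over all tested genes.

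*Eset1* loss in *Eset2*-mutant cells (*E1E2* against *E2*) came with fewer calls, 5 lower (0.657% of all tested genes) and 0 higher (2.32% of all). Without the fold change minimum 2 were called higher. The 5 were *Medag*, *Eif4g3*, *Tenm4*, *Gas1* and *Slc2a3*. *E2* replicate 2 stood apart in *Gas1*, *Slc2a3* and *Gjb2*, and without it 2 were called lower. *Gas1* and *Slc2a3* then had log2 fold changes of -0.87 and -0.69, under the minimum in size. *Eif4g3* also lost its call, by its adjusted p, with a log2 fold change of -1.37 against -1.51 with all libraries. *Slc2a3* was at 4.84, 9.84 and 4.79 CPM in the *E2* libraries and 3.47, 2.78 and 2.73 CPM in *E1E2*. The median log2 fold change was -0.30, against 0.01 over all tested genes. It was -0.18 without *E2* replicate 2 and -0.55 without *E1E2* replicate 1.

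When *G9a* and *Glp* were lost as well (*E1E2 G9Gl* against *E1E2*), 17 of the 31 genes were called lower, where 6.78% of all tested genes were, and 3 were called higher, where 14.8% of all were. The 3 were *Thy1*, *Unc13c* and *Eif4g3*, and *Unc13c* was at 2.64, 2.84 and 2.46 CPM against 0.528, 0.728 and 0.361 CPM in *E1E2*. The median log2 fold change was -2.22, or -1.62 where genes with 3 or fewer counts in a condition are set to their bound of 3 counts, against 0.01 over all tested genes. The 11 not called were *Gli2*, *Serpinf1*, *Thbs2*, *Antxr1*, *Capn6*, *Kirrel3*, *Medag*, *Zfp422*, *Ptn*, *Rps6ka6* and *Dapk2*. All but *Dapk2* (20.5% of WT) were at or under 12.5% of WT in *E1E2*, as were *Mn1*, *Tenm4* and *Shc2*, called lower, and *Eif4g3* and *Unc13c*, called higher.

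*E1E2 G9Gl* against *E1 S1S2* sets the lines before the last step of each series against each other. In it 18 genes were called lower, where 5.82% of all tested genes were, and 6 were called higher, where 14.2% of all were. *Shc2*, *Hlf* and *Crabp2* had log2 fold changes of -5.84 ± 0.20, -5.50 ± 0.23 and -5.37 ± 0.20 (SE; adjusted p of 1.59e-17, 8.66e-16 and 1.30e-16). The 6 higher were *Thy1*, *Ptn*, *Eif4g3*, *Slc2a3*, *Dapk2* and *Unc13c*. *Ptn* rests on 11 counts against 0, and its libraries overlap.

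Against WT, 22 of the 31 genes were called lower in *E1* (1.99% of all tested genes) and 29 in *E2* (3.21% of all). None was called higher in either, where 2.27% and 2.90% of all were; without the fold change minimum it was 1 in *E1* and 0 in *E2*. The rule used the WT libraries, which favors lower values in both, so these counts are not independent of how the genes were chosen. Without WT replicate 2 they were 22 and 28. *Crabp2* and *Gas1* were not called in *E2*, where *Crabp2* was at 33.4, 44.6 and 34.6 CPM. *E2* cells received no 4-OHT and still carry *Eset1*. The change with 4-OHT was not tested for a difference between the *E1* and *E1E2* pairs of conditions, as only the former includes WT libraries.

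In the contrasts that the rule used, all 31 genes lay lower in *6KO1* than in WT and in *6KO2* than in WT, where 10.2% and 5.39% of all tested genes were called lower. The level in each last step can be set beside the one before. These counts are a description, as the rule used *6KO1* and *6KO2*. In *6KO1*, 22 genes lay in every library below *E1 S1S2* and 3 above, where 27.3% and 45% of all tested genes did. In *6KO2*, 5 lay in every library below *E1E2 G9Gl* and 19 above, where 35.4% and 31.8% of all did, the 19 including *Crabp1*, *Mn1* and *Fgf5*.

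**Figure D4:**
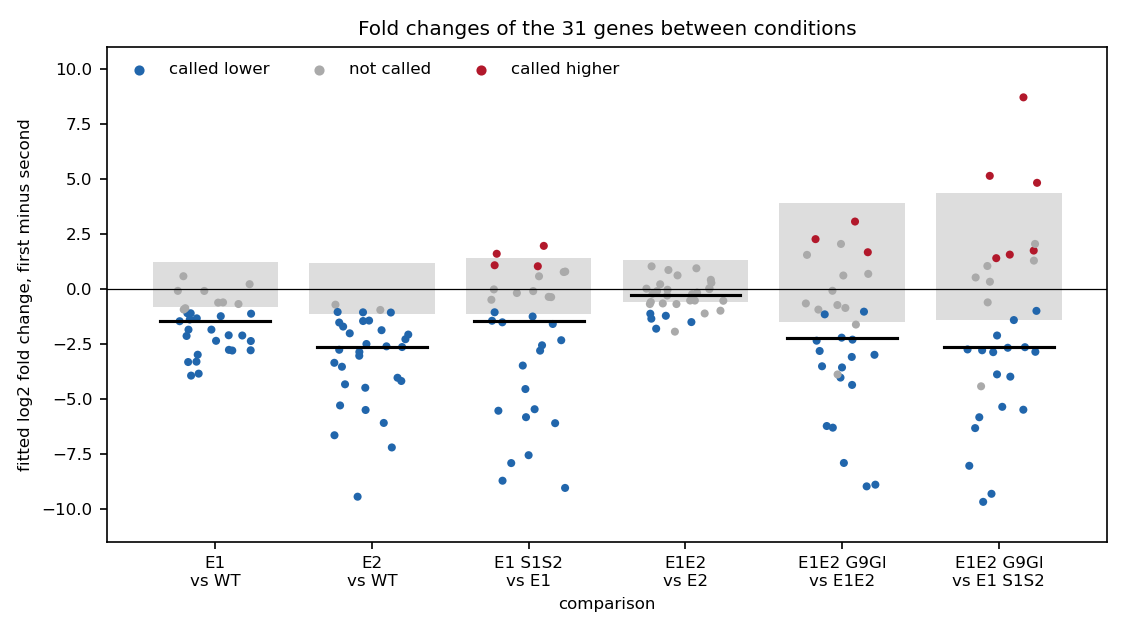
Fitted log2 fold change of each of the 31 genes in 6 comparisons (points, blue called lower, red called higher, grey not called), with the median of the 31 (bar) and the 5th to 95th percentile of all 18565 tested genes (grey box). Most points lie below 0 in each comparison, with the median nearest to 0 in *E1E2* against *E2* (-0.30); the WT libraries of the first 2 comparisons were used by the rule.

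Other genes of the same roles were called in both directions. Of all tested genes 3.75% were lower and 4.31% higher in *E1 S1S2* against *E1*, and 6.78% lower and 14.8% higher in *E1E2 G9Gl* against *E1E2*, and the lists below stand beside these shares. No list was tested as a whole. Of 60 tested secreted ligands and binding proteins that are not among the 31, 14 were called lower and 9 higher in *E1 S1S2* against *E1*, and 13 lower and 17 higher in *E1E2 G9Gl* against *E1E2*. Of 59 mesenchymal transcription factors, 9 were lower and 5 higher in the former and 12 lower and 6 higher in the latter. *Gli1*, a target of Hedgehog signalling, was among those lower in *E1 S1S2*, with a mean of 0.505 CPM against 2.09 CPM. Of 36 receptors, 8 were lower and 1 higher, then 7 lower and 6 higher. Of 31 matrix enzymes and inhibitors, 5 were lower and 3 higher, then 3 lower and 14 higher. Of 38 matrix glycoproteins the counts were 3 and 3, then 6 lower and 12 higher, and of 19 proteoglycans and hyaluronan genes 2 and 2, then 4 lower and 7 higher. Of 40 adhesion and surface proteins, 6 were lower and 4 higher, then 6 lower and 13 higher. Of 18 contractile and cytoskeletal genes, 5 were lower and 0 higher, then 2 lower and 4 higher. *Postn*, a matrix protein of connective tissue, was at a mean of 5.49 CPM in *E1E2* and 14.7 CPM in *E1E2 G9Gl*, and *Timp3*, which holds back metalloproteinases, was at 152 and 427 CPM.

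How the 31 genes are spread over the chromosomes is given as a description and was not tested. Chromosome 9 holds 6 of the 31 (19.4%; *Crabp1*, *Dapk2*, *Thy1*, *Unc13c*, *Car12* and *Kirrel3*), and 5.80% of the 11141 genes with the WT count minimum. Chromosome 6 holds 4 (12.9%, against 4.77%). Only *Dapk2* and *Car12* lie within 1 megabase of each other, 0.441 megabases apart. The nearest gene with the WT count minimum on each side gave 62 neighbours, none of them among the 31, at a median distance of 153 kb. Their median level was 94.0% of WT in *E1 S1S2*, and in the second series 89.3% in *E1E2 G9Gl* and 91.8% in *6KO2*, with 90.1% in *6KO1*. None was at or under 12.5% of WT in *6KO1* or in *6KO2*. In *E1E2 G9Gl* against *E1E2*, 3 of the 62 were called lower and 4 higher, against 6.78% and 14.8% of all tested genes. In *E1 S1S2* against *E1* it was 0 and 1, against 3.75% and 4.31% of all. The neighbours all meet the WT count minimum and the tested genes do not, so these shares are not matched for WT level. *Prkar1a*, 0.0920 kb from the end of *Fam20a*, was at 80.1% of WT in *E1E2 G9Gl*, where *Fam20a* was at 2.63%. The choice of neighbours was made after the values were seen.

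**Figure D5:**
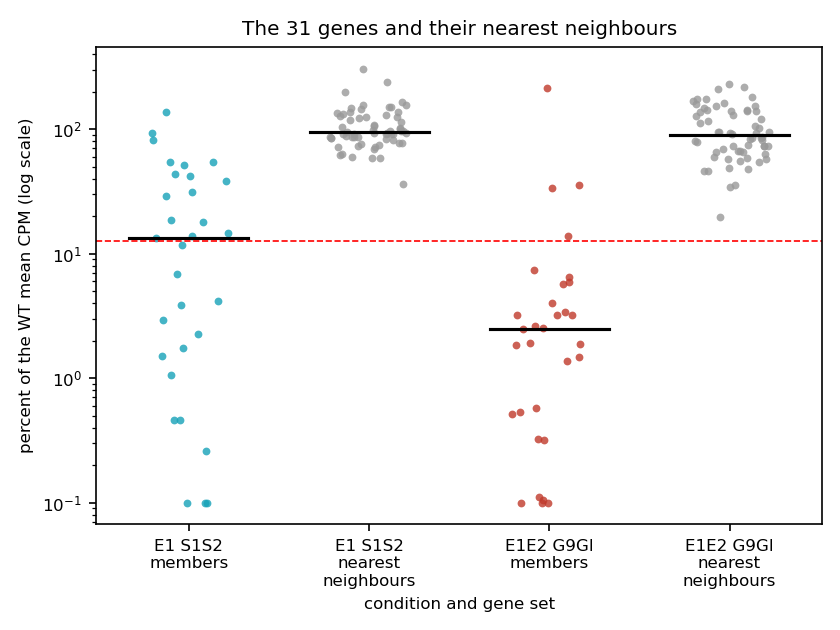
Level in *E1 S1S2* and *E1E2 G9Gl*, as percent of the WT mean CPM on a log axis, of the 31 genes (colored) and of the 62 nearest genes on either side of them (grey); black bars are medians and the dashed red line is 12.5%. The neighbours have medians of 94.0% and 89.3% and none lies under the line.

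All 31 genes are annotated as protein-coding, with a median of 4238 exon bases against 4382 for genes with the WT count minimum. RefSeq sequence was found for 24 of the 31 (77.4%). This is under the 80% set for a comparison of base composition, which is therefore void, and motif counts are given only as a description. Of the 24 windows, 16 held GGGCGG, 9 CCAAT, 4 TGTGGT, 3 GGAATG, 3 TATAAA, 1 TGANTCA and 0 the CArG box, on either strand. Of all tested genes with a sequence, 57.5%, 36.8%, 10.8%, 10.9%, 6.87%, 4.78% and 1.22% held them. Such matches are descriptions of letters and not binding sites.

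Genes just inside the threshold were *Car12*, at 11.6% of WT in *6KO1*, and *Gli2* and *Fgf5*, at 11.2% and 11.1% in *6KO2*. Just outside were *Cdh23* at 13.2%, *Cacna1g* at 13.4% and *Gli1* at 13.5% of WT, each in *6KO2*.

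The label of the genes as fibroblast genes was checked against fibroblast markers. Of 14 markers, *Thy1* is the only one among the 31. In WT 13 of the 14 were above 1 CPM and *Fap* had no count. Their summed level was 8924 to 11550 CPM in the WT libraries, 6897 to 7458 CPM in *6KO1*, 12550 to 13220 CPM in *E1E2 G9Gl* and 8434 to 8767 CPM in *6KO2*. *Vim*, the most abundant in WT, was at a mean of 1859 CPM in WT, 1499 in *6KO1* and 1727 in *6KO2*. The receptor gene *Pdgfra* was at 4.94 CPM in WT and 0.135 CPM in *6KO1*, but at 2.96 CPM in *6KO2*. The sums are carried by a few abundant genes, and those of *6KO1*, *6KO2* and *E1E2* lie below every WT library. Markers other than *Thy1* were called in both directions. In *E1 S1S2* against *E1*, *Col1a2*, *Col3a1* and *S100a4* were lower, and in *E1E2 G9Gl* against *E1 S1S2* these and *Fap* were higher and *Pdgfra* lower. In *E1E2 G9Gl* against *E1E2*, *Col3a1*, *S100a4* and *Fap* were higher and *Pdgfra* lower, and in *E1E2* against *E2*, *Pdgfra* was higher and *Col3a1* lower. Against WT, *Col3a1* was lower and *Fap* higher in *E1*, and *Pdgfra* lower in *E2*. As *Thy1* is the only marker among them, the 31 genes are described here by their rule and not as markers of the cell type.

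Markers of most other cell types were low in WT, and higher in some mutant lines. The 6 keratinocyte or epithelial markers summed to 1.24 to 1.98 CPM in the WT libraries, 12.2 to 12.9 CPM in *E1E2 G9Gl*, 22.6 to 23.8 CPM in *6KO2* and 28.3 to 30.1 CPM in *6KO1*. They summed to 5.2 to 6.3 CPM in *E1* and 10.6 to 12.9 CPM in *E1 S1S2*. In *E2* the sum was 8.32 to 11.1 CPM and in *E1E2* 4.93 to 7.11 CPM, so that every other condition lay above every WT library. *Krt8* is the most abundant in WT (0.951 CPM), *Krt5* had no count there, and *Krt14* reached means of 10.6 CPM in *6KO1* and 19.1 CPM in *6KO2*. The 4 endothelial markers summed to 0.425 to 0.587 CPM in WT, 5.26 to 6.03 CPM in *6KO1* and 3.85 to 5.37 CPM in *6KO2*. Of 4 haematopoietic markers 3 had no count in WT. *Cd68* had a mean of 3.77 CPM there and 21.3 CPM in *6KO1*, where *Adgre1* and *Cd3e* had none. The 4 summed to 3.17 to 4.11 CPM in WT, 20.9 to 23.6 CPM in *6KO1* and 3.86 to 4.64 CPM in *6KO2*. In *E1E2 G9Gl*, *Ptprc* and *Cd3e* had means of 1.89 and 1.66 CPM, both called higher than in *E1E2*, where they had 0.0143 and 0 CPM. The 4 adipocyte markers, led by *Pparg*, summed to 1.11 to 1.86 CPM in WT and 0.329 to 0.349 CPM in *E1 S1S2*. They summed to 11.3 to 13.2 CPM in *6KO1*, 2.74 to 3.98 CPM in *6KO2* and 13.2 to 15.2 CPM in *E1E2 G9Gl*. The 4 skeletal muscle markers, led by *Des*, summed to 1.19 to 1.34 CPM in WT and 12.0 to 12.4 CPM in *E1E2 G9Gl*. They summed to 13.9 to 14.8 CPM in *6KO1* but 3.27 to 4.52 CPM in *6KO2*. The 3 smooth muscle markers, nearly all of it *Acta2*, summed to 206 to 259 CPM in WT, 24.1 to 25.2 CPM in *E1 S1S2* and 13.2 to 13.8 CPM in *E2*. They summed to 283 to 296 CPM in *E1E2 G9Gl*, above WT, and the 2 lines used by the rule differed, with 61.2 to 73.5 CPM in *6KO1* and 231 to 255 CPM in *6KO2*. The 4 neural markers, nearly all of it *Tubb3*, summed to 26.6 to 29.7 CPM in WT, 118 to 126 CPM in *E1E2*, 21.95 to 25.8 CPM in *6KO1* and 123 to 142 CPM in *6KO2*. The 4 cartilage and bone markers, led by *Sox9*, summed to 2.78 to 5.32 CPM in WT and 0.554 to 0.687 CPM in *E1E2 G9Gl*, and the 4 pluripotent markers to under 0.713 CPM in every library. The part of these shifts in the level of the 31 genes was not tested.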

How the data were processed

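The counts of genes and repeat elements in 24 RNA-seq libraries were used as the authors deposited them. The authors trimmed reads with cutadapt 1.8.1, aligned them to GRCm38 with STAR 2.5.2b and counted with TEtranscripts. Reads were not realigned here. Columns left without a sample numbered 0, and 1 malformed entry, 0.00201% of counts, was left out. Replicates of a condition differed by more than counting error. Genes with low counts were removed with filterByExpr by condition, which left 18565. A model over the 24 libraries gave every condition its own coefficient, and edgeR 4.0.16 (under R 4.3.3, with limma 3.58.1 and TMM factors) tested contrasts by quasi-likelihood, in both directions, with p adjusted over all tested genes by the Benjamini-Hochberg method. The SE printed is the absolute log2 fold change over the square root of the F statistic of that test, and not a separate estimate. DESeq2 1.42.0 was an alternative. Symbols were found for 47224 gene identifiers. Annotation was GENCODE for GRCm38. Floors of 3 counts cover counting error only.

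The members and lists were chosen with earlier results of these data known. Genes named are the 20 with the highest WT level, the 10 lowest in both *6KO* lines relative to WT, up to 5 called per direction and comparison, those in a list by role, those nearest the threshold, and cell type markers. The members left were named so that all 31 appear. *Postn*, *Timp3*, the neighbouring genes and those under other observations were chosen after their values were seen. Motifs were searched only before the start site, in place of the planned window around it. Alternatives were other factors, filters, fits, thresholds and each library left out. Figures were drawn with matplotlib 3.10.9.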

Additional observations from a re-analysis of the deposited data

How the results depend on the processing

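The number of genes was 92 with a threshold of 1/4 of WT in place of 1/8, 12 with 1/16, and 20 with a WT minimum of 200 counts. Other totals, TMM sizes, medians and a minimum of 50 gave 32 to 44, and leaving out each library in turn gave 31 to 37.

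Without the fold change minimum, 7 genes were called higher in *E1 S1S2* against *E1*, 1 higher in *E1* against WT, 2 higher and 8 lower in *E1E2* against *E2*. Leaving out each library in turn gave 2 to 4 higher in *E1 S1S2* against *E1*, and 0 to 1 higher and 2 to 6 lower in *E1E2* against *E2*. The cause was not tested. The other counts of calls stayed within 1.5 times under DESeq2, RLE factors, no filter on low counts and only the 6 libraries compared. Of 42 fold changes of named genes none changed sign over 460 refits, and 16 of the refits lost the call, 5 of them of *Ptn* in *E1E2 G9Gl* against *E1 S1S2* and 4 of *Dkk2* in *E1 S1S2* against *E1*. Most fold changes printed above with an SE, such as those of *Crabp1*, were not among the 42 and were not refitted.

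Same-numbered libraries did not deviate together, with mean correlations from -0.13 to 0.03 over the 6 comparisons, so the numbers were not taken to pair the samples. With the replicate block in the fit, 17 in place of 18 genes were called lower in *E1E2 G9Gl* against *E1 S1S2*, and the counts of calls in the other 5 comparisons were the same.

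Depth limits the genes near 0: with 3 or fewer counts in a condition, how far a gene is reduced was not detectable. Between clones, genotype and clone cannot be told apart, and within a clone *Eset1* loss and 4-OHT cannot. WT replicate 2 stands apart.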

Other observations

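Genes of the Hedgehog and retinoid pathways beyond the 31 were looked at after the values of *Gas1*, *Gli2*, *Crabp1* and *Crabp2* were seen, and no test of a list was made. The Hedgehog receptor *Ptch1* had means of 20.97 to 28.9 CPM over the 8 conditions, and the signal transducer *Smo* 99.98 to 124 CPM. *Gli3*, mostly a repressor of the pathway, was at 75.9 CPM in WT and 112 CPM in *E1E2 G9Gl*. The co-receptors *Boc* and *Cdon* had means of 15.8 and 158.5 CPM in *E1E2 G9Gl* against 2.34 and 48.3 CPM in *E1E2*, both called higher, in the condition where *Gas1* was at 3.62 CPM. *Boc* was called lower in *E1 S1S2* (1.44 CPM) than in *E1* (5.32 CPM). The ligand gene *Dhh* was called lower in *E1 S1S2* (0.137 CPM) than in *E1* (0.516 CPM), and in *E1E2 G9Gl* (0.384 CPM) than in *E1E2* (1.14 CPM). *Gli1* was also called lower in *E1 S1S2* than in *E1*. *Shh* had no count in any condition.

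In the retinoid pathway, *Aldh1a1*, an enzyme that makes retinoic acid, was at a mean of 0.0545 CPM in *E1E2* and 369.9 CPM in *E1E2 G9Gl*, with an SD of 0.420 over the 3 libraries, and at 7.63 CPM in *6KO2*. The receptor *Rarb*, known to be induced by retinoic acid, was at 0.0562 CPM in *E1E2* and 5.90 CPM in *E1E2 G9Gl*, and the reductase *Dhrs3* at 0.375 and 10.4 CPM. *Stra6* and *Cyp26b1* were called higher there too. The synthesis enzymes *Rdh10* and *Aldh1a3* were called lower, at 22.9 and 0.332 CPM in *E1E2* and 8.66 and 0.0142 CPM in *E1E2 G9Gl*. In *6KO1*, *Aldh1a1* was at 0.219 CPM and *Rarb* at 0.636 CPM.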
